A study of Caenorhabditis elegans with 2 samples.

Results

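The regions described here are the peaks of SOMI-1-eGFP chromatin immunoprecipitation sequencing (ChIP-seq) whose summits lay inside protein-coding exons, away from promoters. They were taken from the peak list that the depositors called on both replicates together, the joint list. A summit was kept if it fell in a coding segment of a protein-coding gene and outside every promoter window, which reaches 1000 bp upstream and 200 bp downstream from the annotated 5′ end of each protein-coding transcript. The rule kept 5619 of the 26266 joint summits, which is 21.4% (Wilson 95% interval 20.9 to 21.9%). In all, 7286 summits lay in a coding segment, and the promoter windows removed 1667 of them. A further list holds 1667 peaks kept by an irreproducible discovery rate threshold and is called the thresholded list, and the equal numbers are a coincidence. The study has 1 group with 2 biological replicates of whole young adult Caenorhabditis elegans of mixed sex, aged 65.5 hours, from cultures synchronised by bleaching and starvation of the L1 larvae. The strain, OP752, is mutant for unc-119(tm4063) and carries the transgene wgIs752, which joins somi-1 to TY1, EGFP and 3xFLAG tags and holds a working unc-119. Both replicates share all of this. Peaks therefore report the tagged protein made from a transgene, over all tissues of the animal at once, and no comparison between conditions can be made. Chromatin was sonicated to fragments of 200 to 800 bp and precipitated with an antibody against green fluorescent protein.

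SOMI-1 is a zinc finger protein of the nematode nucleus, known from genetic work on the microRNA mir-84. Proteins of this class are usually studied at promoters and enhancers, where they act on transcription, and a peak in an exon is less easily tied to a regulatory role. The nematode genome is compact, with short introns and short distances between genes, so that a coding exon is often near the end of one gene and the start of the next. Coding exons are also richer in G and C than introns and intergenic sequence. In a peak list, the summit is the position of highest signal within the peak, and the signal value is the score that the depositors' peak caller gave to the peak.

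The summits of the strongest coding-exon peaks are shown as windows that reach 50 bp to either side of the summit. The sequence is the plus strand of the RefSeq copy of WBcel235, the assembly also named ce11. These windows were chosen because pks-1, stdh-1 and dos-3 host the 3 strongest members, because mnk-1, Y42A5A.1, acer-1 and F46G10.2 are members on the thresholded list whose windows hold a searched word, and because cut-2 lies near the somi-1 gene itself. Capitals mark the 6-base word GACGCA on either strand, and likewise the repeat GAGAGA. They also mark the palindrome CACGTG. A window may run from the exon into an intron.
pks-1 chrX:5429497-5429597: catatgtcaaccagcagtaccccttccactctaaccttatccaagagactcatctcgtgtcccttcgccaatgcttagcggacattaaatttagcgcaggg
stdh-1 chrV:13907833-13907933: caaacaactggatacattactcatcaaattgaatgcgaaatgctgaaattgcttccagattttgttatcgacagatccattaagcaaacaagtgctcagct
dos-3 chrIII:836068-836168: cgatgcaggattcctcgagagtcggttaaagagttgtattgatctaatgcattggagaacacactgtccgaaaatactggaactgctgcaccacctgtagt
mnk-1 chrII:10547538-10547638: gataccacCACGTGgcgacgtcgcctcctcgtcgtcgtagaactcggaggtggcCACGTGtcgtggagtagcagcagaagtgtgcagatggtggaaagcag
Y42A5A.1 chrV:11094845-11094945: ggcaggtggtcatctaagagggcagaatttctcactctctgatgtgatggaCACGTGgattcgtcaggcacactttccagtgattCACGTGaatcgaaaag
acer-1 chrII:6889805-6889905: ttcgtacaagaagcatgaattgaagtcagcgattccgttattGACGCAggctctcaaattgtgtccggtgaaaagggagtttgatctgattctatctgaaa
F46G10.2 chrX:13324113-13324213: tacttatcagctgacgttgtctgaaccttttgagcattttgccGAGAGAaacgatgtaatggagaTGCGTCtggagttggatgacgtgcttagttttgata
cut-2 chrV:13415584-13415684: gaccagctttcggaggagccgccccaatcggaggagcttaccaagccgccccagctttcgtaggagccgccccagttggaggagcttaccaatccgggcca
The windows of pks-1, stdh-1, dos-3 and cut-2 held none of the 3 words. Those of mnk-1 and Y42A5A.1 each held CACGTG more than once, and that of acer-1 held GACGCA. The F46G10.2 window held GAGAGA and, on the other strand, GACGCA. The GC content of these windows ran from 36.6% at stdh-1 to 64.4% at cut-2.

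Coding exons outside promoter windows made up 19.0 Mb, or 19.0% of the nuclear genome, and they held 296 joint summits per Mb. The density in promoter windows was 314 per Mb over 26.2 Mb, that in introns 213 per Mb and that between genes 229.5 per Mb. The coding-exon share was 22.2% (21.7 to 22.7%) of the 29600 summits of replicate 1 alone and 20.5% (20.03 to 21.01%) of the 26067 summits of replicate 2 alone. Counted over whole lists, coding exons thus held summits at a density above that of introns in all 3 lists.

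Strong peaks were seldom in coding exons. In the joint list the coding-exon share was between 21.6% and 27.0% in each of the 8 deciles of weakest signal, and it was 16.3% (14.9 to 17.8%) in the ninth and 4.30% (3.59 to 5.15%) in the strongest. The strongest decile was also the lowest in each replicate's own list, with 8.11% (7.18 to 9.15%) in replicate 1 and 5.52% (4.71 to 6.47%) in replicate 2. In the ninth decile the replicates differed: the share was 21.4% (19.9 to 22.9%) in replicate 1, close to the 22.8% of its eighth, and 16.95% (15.6 to 18.4%) in replicate 2, against 20.1% in its eighth. None of the 20 strongest joint peaks was a member (interval 0 to 16.1%). Of the 100 strongest peaks 1 was a member, of the 500 strongest 6, of the 1000 strongest 14 and of the 5000 strongest 495. The opposite held for promoter windows, which took 27.4% of the weakest decile and 44.0% of the strongest.

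**Figure D1:**
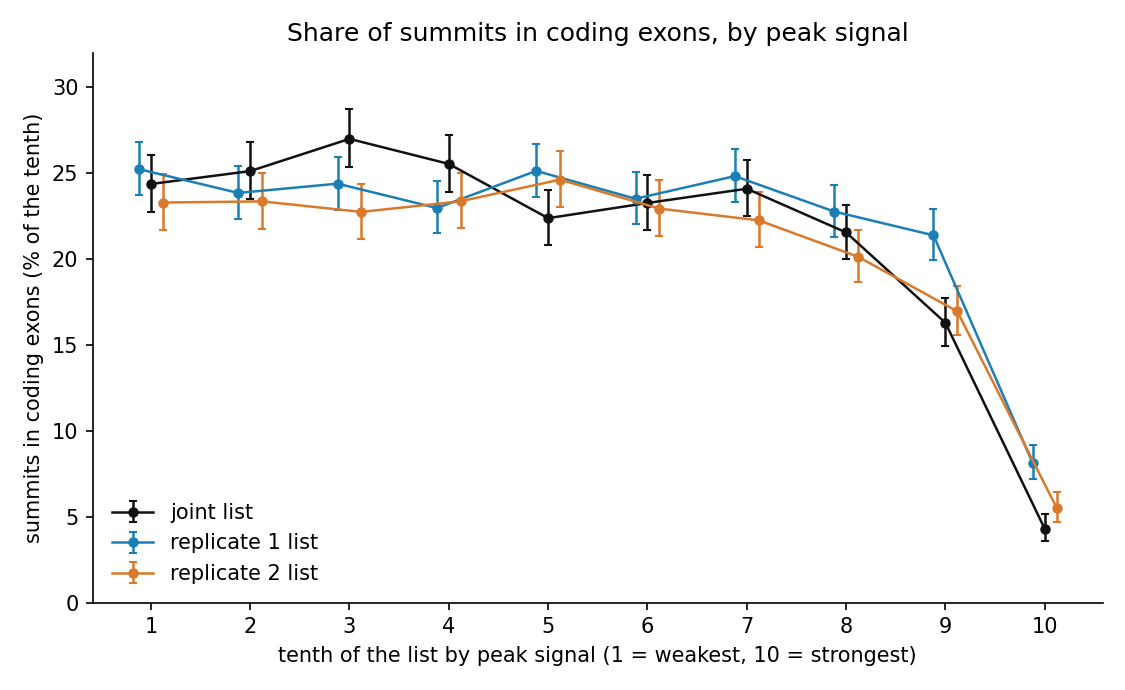
Share of summits in coding exons outside promoter windows (vertical axis, % of each decile) against deciles of the list by peak signal, weakest to strongest, for the joint list and each replicate's own list; points are shares and bars Wilson 95% intervals. In all 3 lists the share stays above 20% over the 8 weaker deciles and is between 4.30% and 8.11% in the strongest.

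The median signal of members was 37.1 in the joint list (quartiles 32.3 and 45.5, highest 315), against 39.4 over the whole list. Summits in promoter windows had a median of 41.2, those between genes 40.4 and those in introns 38.8. A member stood at the median at percentile 42.2 of the joint list, and 2351 members (41.8%) were above the list's median. Within the replicates' own lists the coding-exon summits had a median signal of 21.4 in replicate 1, against 22.1 over all its summits, and of 21.6 in replicate 2, against 22.7. Their median percentiles were 45.9 in replicate 1 and 44.0 in replicate 2. The members thus sat below the middle of every list, and the upper tail differed most: the 99th percentile of signal was 82.5 for members, 225 for promoter windows, 204 for introns and 109 for other exonic sequence.

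Support in the replicates' own lists was counted where the joint summit fell inside a peak of that list. Replicate 1 supported 3791 members (67.5%, 66.2 to 68.7%), against 71.4% of all joint peaks. Replicate 2 supported 3371 (60.0%, 58.7 to 61.3%), against 66.9%. Both supported 1929 members (34.3%, 33.1 to 35.6%), against 43.8%. Of the rest, 1862 had support in replicate 1 alone, 1442 in replicate 2 alone, and 386 (6.87%) in neither list, against 5.44% of all joint peaks. Most coding-exon peaks of the joint list were therefore not called in both replicates separately.

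Support followed signal closely, and members were compared with other summits within quintiles of signal. Over quintiles of the joint list from the weakest to the strongest, both replicates supported 7.85%, 15.1%, 33.8%, 60.6% and 90.2% of members. The shares for all other joint summits were 7.72%, 16.3%, 36.8%, 67.1% and 94.1%. Members were below other summits in all quintiles but the weakest, with the widest gap in the fourth, and their intervals overlapped those of the others in the 3 weakest. Only 541 members fell in the strongest quintile, against 4713 other summits. This quintile has no upper limit: its members reached a signal of 315 and its other summits 841. The thresholded list kept 6.28% of these members and 34.6% of these other summits, so the 2 classes were not of like signal there.

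**Figure D2:**
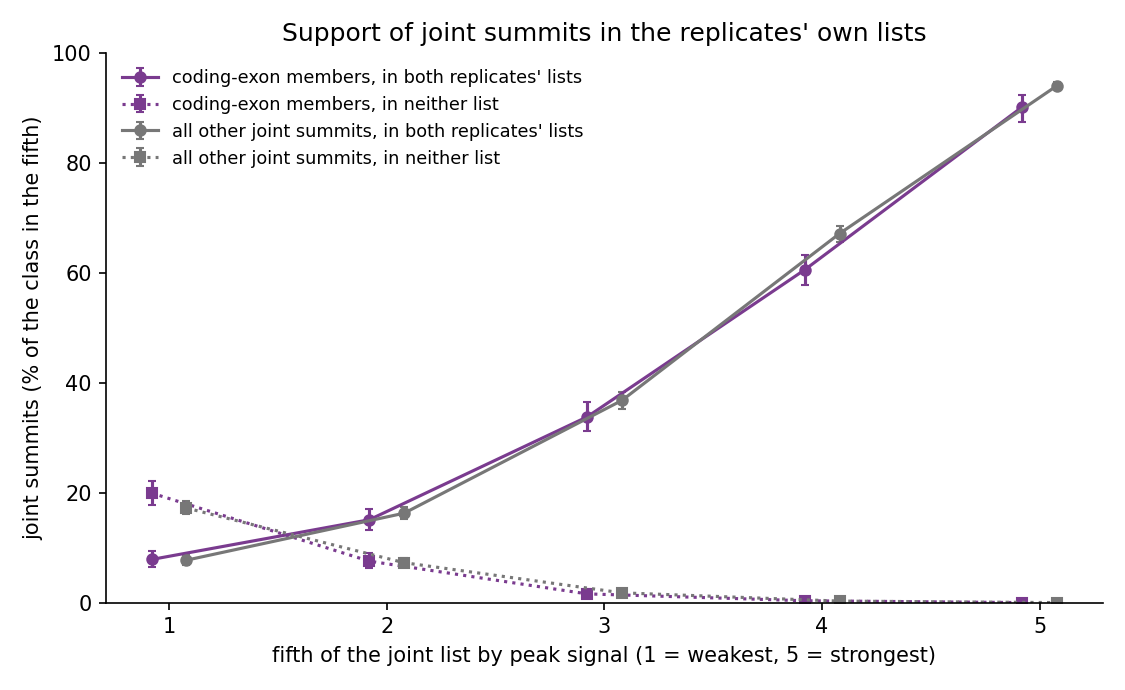
Share of joint summits whose position lay in a peak of both replicates' own lists (circles) or of neither (squares), by quintile of joint signal, for coding-exon members and for all other joint summits; bars are Wilson 95% intervals. Both classes climb together with signal, members to 90.2% and other summits to 94.1% in the strongest quintile. That quintile has no upper limit, and its other summits reach higher signals than its members.

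The replicates ranked shared coding-exon peaks differently. Over the 1929 members found in both lists, the replicates' own signals had a Spearman correlation of 0.25 and a Pearson correlation of 0.37 on the log2 scale. Over the 9582 other joint summits found in both lists the same values were 0.58 and 0.73. These are descriptions across peaks that share libraries and one control alignment, and the narrower range of signal among members moves with them. Replicate 1 was the higher at 996 of the 1929 members.

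The thresholded list kept 34 members, 0.605% (0.433 to 0.844%) of them, against 6.35% of all joint peaks. It kept 9.12% of promoter-window summits, 9.29% of those between genes, 5.57% of intron summits and 2.67% (1.79 to 3.98%) of summits in other exonic sequence. Members made up 2.04% (1.46 to 2.84%) of the thresholded list. All 1667 thresholded peaks were the 1667 of highest joint signal, so this list adds no ranking of its own, and the 34 are the 34 members of strongest signal. Their signals ran from 91.0 to 315 with a median of 108, against a median of 124.6 over the whole thresholded list. Their deposited −log10 q-values ran from 2.57 to 3.43. Only 6 of the 34 had a signal above 150, and 14 were under 100. Every one of the 34 lay in a different gene and in a peak of both replicates' own lists.

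The 3 strongest members were the ones with a joint signal above 200. The peak in pks-1, a polyketide synthase gene, lay at chrX:5429452-5429656 in coding segment 22 of 30 and ranked 66 of the joint list with a signal of 315. The replicates' own signals there were 155 and 164 in replicates 1 and 2, at rank 65 in each list, so that they placed this peak alike. The peak in the last coding segment of stdh-1, of the steroid dehydrogenase family, at chrV:13907697-13908036, had a joint signal of 219.9 and own signals of 147 in replicate 1 and 72.8 in replicate 2. The peak in the last coding segment of dos-3, which encodes a secreted protein of the kind that acts with Notch ligands, at chrIII:835908-836327, had a joint signal of 205 and own signals of 83.4 and 121. The replicates thus differed in opposite directions at the second and the third.

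Further hosts among the 34 are enzymes of metabolism. One is pck-1, the phosphoenolpyruvate carboxykinase of gluconeogenesis, with a joint signal of 135 and own signals of 78.7 in replicate 1 and 58.1 in replicate 2. At icl-1, an enzyme of the glyoxylate cycle, the joint signal was 99.8 and the own signals 42.5 and 78.3. Both of these peaks lay wholly in coding sequence. The joint signal was 111 at adss-1, which encodes adenylosuccinate synthase, with own signals of 62.1 and 48.3. It was 99.9 at hgo-1, the homogentisate dioxygenase of tyrosine breakdown, with own signals of 55.9 and 42.8. At sodh-2, an alcohol dehydrogenase gene, it was 93.7, with own signals of 40.6 and 57.2. The hosts are grouped here by role only to describe them, and no such group was counted against all genes.

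Signalling genes among the 34 included mnk-1, a kinase acted on by MAP kinases, with a joint signal of 124 and own signals of 73.8 in replicate 1 and 52.4 in replicate 2. At kin-20, a casein kinase 1 gene with a part in developmental timing, the joint signal was 93.6 and the own signals 51.1 and 41.9. At crh-1, which encodes the CREB transcription factor, it was 96.6, with own signals of 48.5 and 42.2. At pde-2, a cyclic nucleotide phosphodiesterase gene, it was 92.1, with own signals of 53.2 and 42.9. Replicate 1 was the higher at all 4 of these genes, as it was at 20 of the 34 thresholded members.

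Membrane and trafficking genes formed another part. The joint signal was 159 at best-18, of the bestrophin family of anion channels, with own signals of 92.8 in replicate 1 and 71.4 in replicate 2. It was 93.2 at sfxn-2, a mitochondrial carrier of the sideroflexin family, with own signals of 34.1 and 57.5. At sdpn-1, a syndapin of endocytic membranes, it was 94.9, with own signals of 45.4 and 50.5. At chmp-7, of the ESCRT-III membrane scission complex, it was 108, with own signals of 48.7 and 61.2. The chmp-7 summit lay 412 bp downstream of the 5′ end of the neighbouring rpl-32, a gene for a protein of the large ribosomal subunit, and the replicate 1 peak that covered it also covered a weaker joint summit in rpl-32. At uda-1, a nucleoside diphosphatase gene, the joint signal was 115.1 and the own signals 56.1 and 58.5.

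The remaining hosts described by role are clec-221, cut-2 and nono-1. At clec-221, a C-type lectin gene, the joint signal was 168 and the own signals were 104 in replicate 1 and 67.9 in replicate 2, and the peak touched a promoter window. At cut-2, a gene for a cuticulin, a cross-linked component of the cuticle, the joint signal was 112.4 and the own signals 41.6 and 67.7. At nono-1, a gene for a nuclear RNA-binding protein of the NONO kind, it was 96.3, with own signals of 57.5 and 45.5.

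The other 14 hosts are named without a role. Their joint signals were 178 at T28F4.4, 134 at F01F1.3, 117 at lelo-2, acer-1 and Y42A5A.1, and 116 at F32D8.3. They were 108 at F14B4.1 and F25B5.5, 106 at C36E8.4, 97.4 at F43G9.13, 93.6 at grsp-1, 92.0 at F19H8.2, 91.5 at Y43B11AR.3 and 91.0 at F46G10.2. Among these 14 the replicates' own signals were closest at F46G10.2 (45.7 in replicate 1 and 46.1 in replicate 2) and F01F1.3 (67.8 and 64.4). They were far apart at F43G9.13 (65.9 and 23.6) and Y43B11AR.3 (75.4 and 22.8), which with stdh-1 are the 3 members that differed more than 2-fold between replicates. The lelo-2 and Y43B11AR.3 peaks touched a promoter window, as that of clec-221 did. Their summits lay 242 and 247 bp downstream of an annotated 5′ end of the same gene. The Y43B11AR.3 summit was also within 500 bp of a snoRNA gene. The F14B4.1 and hgo-1 summits lay within 500 bp of a tRNA gene, and the nearest other joint summit to F14B4.1, in an intron, was stronger, with a signal of 194.

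**Figure D3:**
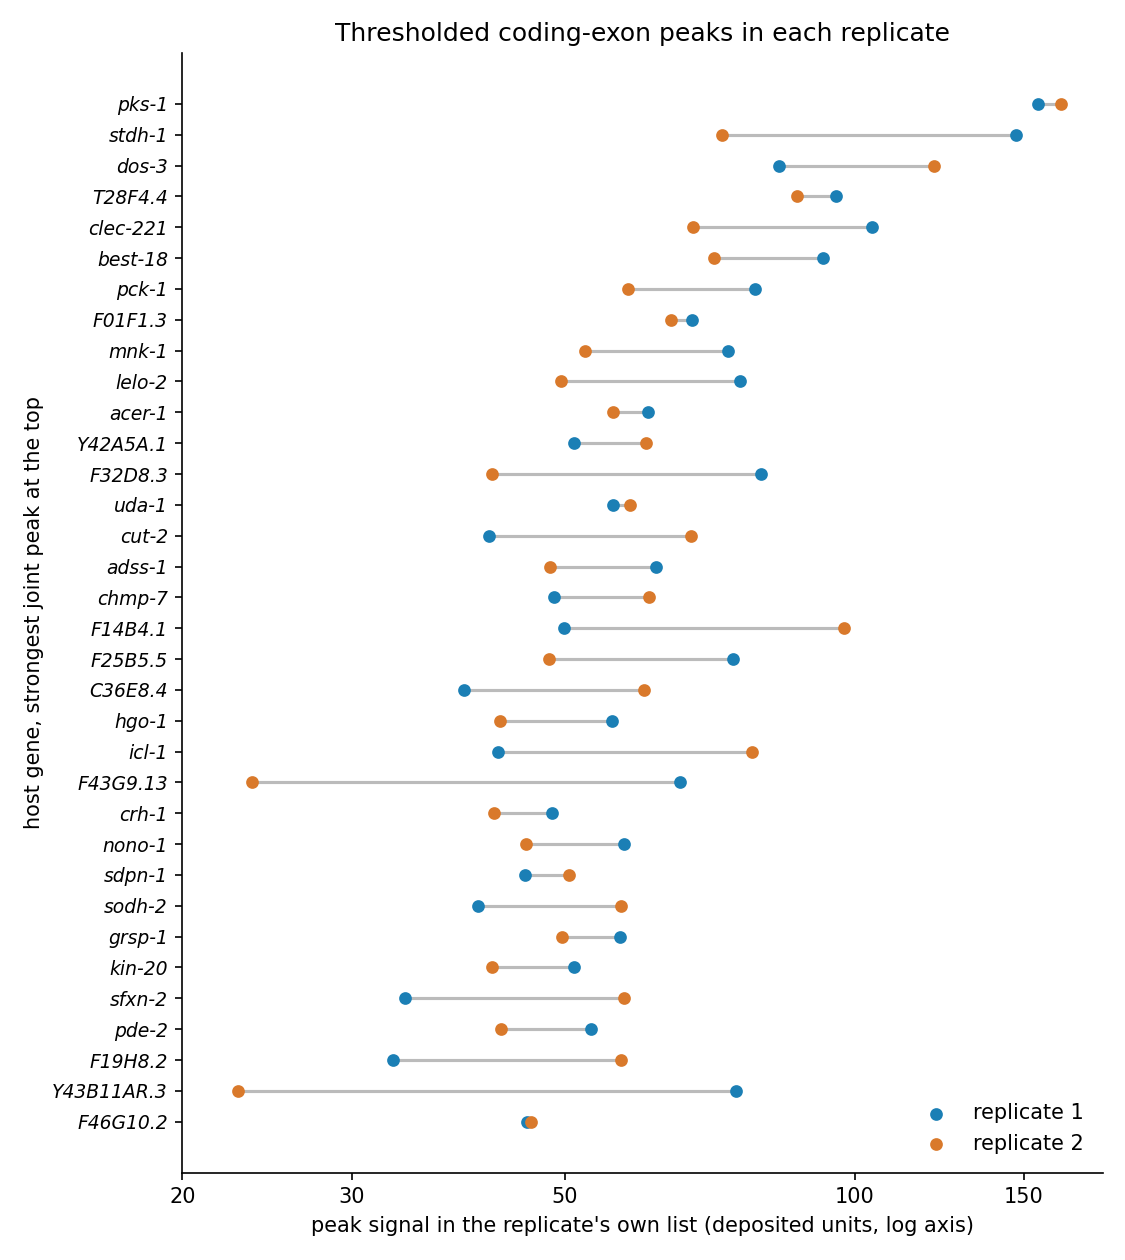
Peak signal in each replicate's own list (horizontal axis, deposited units on a log scale) at the 34 coding-exon peaks kept in the thresholded list, one host gene a line, ordered by joint signal with the strongest at the top; grey lines join the replicates. Replicate 1 is the higher at 20 of the 34, and the gap is over 2-fold at stdh-1, F43G9.13 and Y43B11AR.3.

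The strongest members outside the thresholded list were nearly as strong as the weakest inside it. They lay in CC8.2 (joint signal 90.9, own signals 54.1 in replicate 1 and 42.9 in replicate 2), coel-1 (89.5, 31.1 and 70.1), lpin-1, which encodes a lipin phosphatase of lipid synthesis (89.1, 47.1 and 47.2), ubq-1, the polyubiquitin gene (88.8, 51.6 and 36.5), and osm-6, a gene of ciliary transport (88.3, 42.1 and 50.9). All 5 were in inner coding segments.

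Most member peaks were not purely exonic. Of the 5619, 5616 were 420 bp wide with the summit in the middle, and a median of 78.3% of a peak was coding (quartiles 61.7 and 89.8%). Only 1028 (18.3%) lay wholly in coding sequence, and 791 (14.1%) touched a promoter window. The summit was a median of 74 bp from the end of its coding segment, and 2060 summits (36.7%) were within 50 bp of one. The position was coding in every transcript across it at 5210 members (92.7%) and at 32 of the 34 thresholded ones. Sonicated fragments of 200 to 800 bp are longer than these distances, so the place of a summit within an exon is not resolved at this scale.

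Along the transcript, members were spread much as coding length is. Of 5582 members in the longest transcript of their host, 172 (3.08%) were in the first coding segment, which had 3.03% of eligible coding length. Inner segments held 4459 (79.9%), against 82.1% of length, and the last segment 924 (16.6%, 15.6 to 17.6%), against 14.3%. The density was 341 per Mb in last segments and 287 per Mb in inner ones. The last-segment share was 15.1% in replicate 1 alone and 16.5% in replicate 2 alone. Along the coding sequence, cut into 10 parts of equal length, the density was lowest in the first part, at 245 per Mb, and highest in the ninth, at 354 per Mb, with 312 in the last. Distance from the nearest 5′ end of any protein-coding transcript, of the host or of another gene, showed no such slope. The median was 1387 bp for members and 1401 bp for eligible coding bases.

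Among the thresholded members, 14 of 34 (41.2%, 26.4 to 57.8%) lay in the last coding segment and 10 of 34 (29.4%, 16.8 to 46.2%) in the last of these 10 parts. Among the other 5585 members the shares were 16.6% and 10.3%. Measured to the annotated end of the host gene, 15 of the 34 (44.1%, 28.9 to 60.5%) lay within 500 bp, against 18.7% (17.7 to 19.8%) of the other members and 17.1% of eligible coding length. Those in last segments included stdh-1, dos-3, best-18, F01F1.3, lelo-2, F32D8.3, cut-2, chmp-7, F25B5.5, C36E8.4, F43G9.13, nono-1, sodh-2 and grsp-1. The nearest 5′ end was taken over all protein-coding transcripts, so it could belong to the host or to another gene. By the direction of that transcript, the summit lay downstream of the end at 29 of the 34 (85.3%). This is close to the 85.6% of all members and 86.0% of eligible coding bases, and it gives no position relative to the host's own start. These shares rest on 34 peaks chosen by signal and were not tested.

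**Figure D4:**
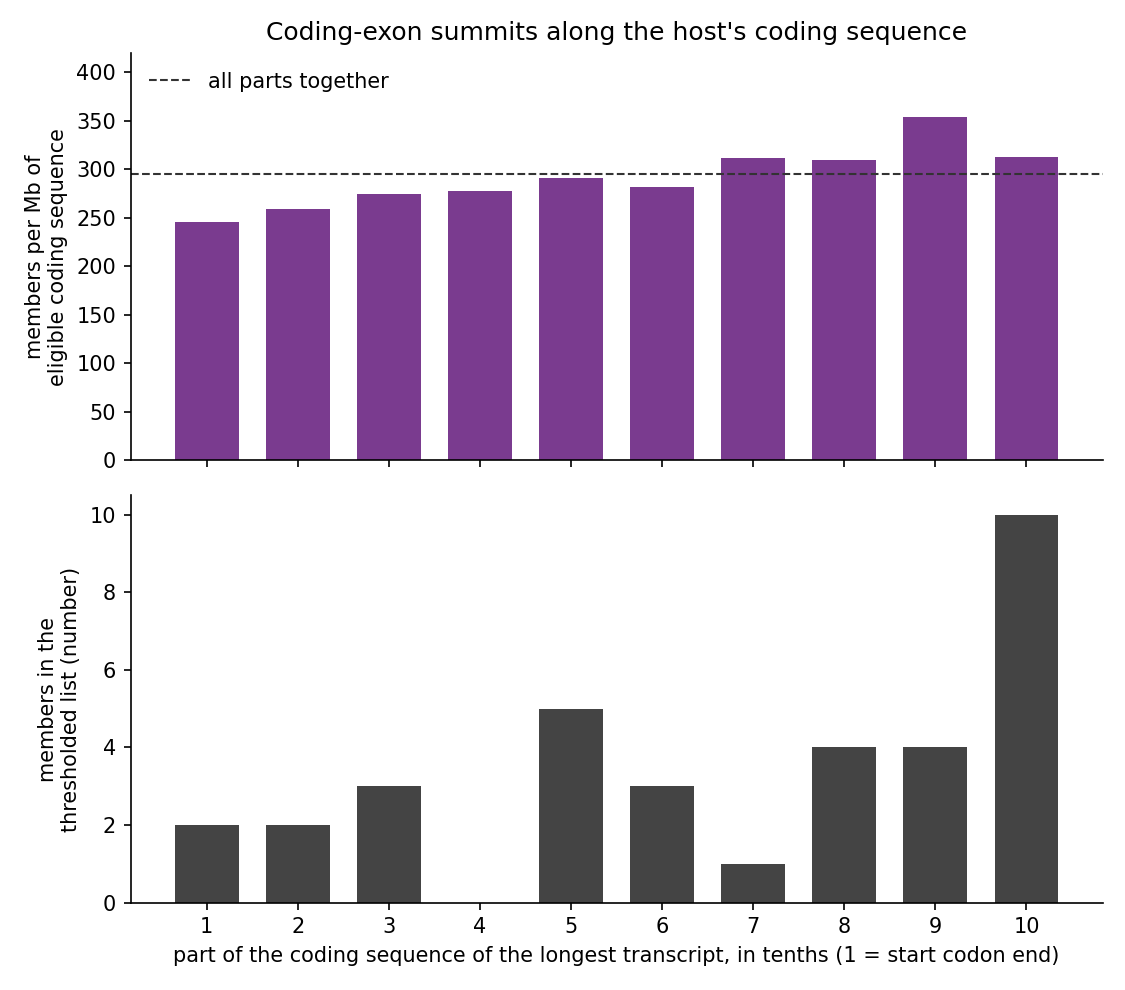
Coding-exon summits by position in the coding sequence of the host's longest transcript, cut into 10 equal parts: members per Mb of eligible coding sequence (upper panel, bars from 0, dashed line for all parts together) and number of members in the thresholded list (lower panel). Density runs from 245 per Mb in the first part to 354 in the ninth, and 10 of the 34 thresholded members are in the last part.

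Summits close to the thresholded members were counted next. Another joint summit lay within 420 bp, the width of a peak, at 19 of the 34 (55.9%, 39.5 to 71.1%), against 28.2% (24.5 to 32.3%) of the 507 other members in the strongest quintile and 37.2% (34.9 to 39.6%) of the other 1633 thresholded summits. The interval overlapped that of the other thresholded summits, and the difference was not tested. The share over all members was 19.5%. The nearest other joint summit was the weaker at all of the 34 but F14B4.1.

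The density of summits climbed with exon length up to 1000 bp. The density was 231 per Mb in coding segments under 100 bp, 248 per Mb in those of 100 to 200 bp, 267 per Mb from 200 to 300 bp, 332 per Mb from 300 to 500 bp and 359 per Mb from 500 to 1000 bp. It was 348 per Mb in segments of 1000 bp and over. The median GC content of the summit windows moved with it, from 38.6% in the shortest segments to 45.5% in those of 500 bp and over, and its part in the result was not tested.

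Summit windows of members were GC-rich. Their median was 43.6% (quartiles 38.6 and 48.5%), against 38.6% in windows 300 bp to either side, 40.6% in windows at every 200th eligible coding base and 38.6% at the other joint summits. The rule puts every member summit on a coding base. Positions 300 bp to the left and right were coding at 56.6% and 55.6% of members, and 8.07% of other joint summits were coding. Only the windows at coding bases were centred on coding sequence in the same way. The quintile of coding windows richest in GC, at 47.5% and over, made up 19.0% of coding windows and held 32.03% of members, 29.7% of the coding-exon summits of replicate 1 and 30.6% of those of replicate 2. It held 13 of the 34 thresholded members. Both replicates supported 38.7% of members in this quintile and 31.5% in the quintile poorest in GC. The median joint signal also differed, at 39.2 in the richest and 35.6 in the poorest, and support moved with signal. All these shares are descriptions, since the part of GC content in peak calling was not tested.

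The word GACGCA, which earlier results on these data had singled out at strong peaks, was looked for on both strands in the same windows of 50 bp to either side. It was present at 132 members (2.35%, 1.98 to 2.78%), against 2.12% and 2.28% in windows 300 bp to the left and right, 2.02% of coding windows and 4.57% (4.30 to 4.87%) of the other joint summits. The difference from the other summits was largest in the strongest quintile, with 2.96% of members (1.83 to 4.75%) and 8.87% of other summits (8.09 to 9.71%). For this and the other words, the strongest quintile does not match signal: 6.28% of its members were thresholded, against 34.6% of its other summits. GAGAGA was present at 5.46% of members, against 4.86% and 5.68% in the flanks, 5.35% of coding windows and 11.9% of other summits. CACGTG, a palindrome known as an E-box, was present at 2.97% of members (2.56 to 3.45%), against 1.98% and 1.85% in the flanks, 2.40% of coding windows and 2.95% of other summits. By quintile of signal this near-equality did not hold. In the strongest, CACGTG was present at 2.96% of members (1.83 to 4.75%) and 5.54% of other summits (4.92 to 6.23%). In each of the 4 weaker quintiles the share was higher at members with overlapping intervals, for instance 3.59% of members (2.67 to 4.80%) and 2.39% of other summits (1.97 to 2.91%) in the fourth. The median GC content of the windows was 44.6% at members and 39.6% at other summits in the fourth quintile. In the strongest it was 45.5% and 42.6%. The interval of CACGTG at members lay above those of both flanks (1.64 to 2.37% and 1.53 to 2.24%) and of coding windows (2.30 to 2.49%), whereas for GACGCA and GAGAGA the intervals overlapped at least 1 flank. Member windows were also richer in GC, with a median of 43.6% against 38.6% in the flanks and 40.6% in coding windows. The part of GC content in the CACGTG shares was not tested, and the intervals are no test.

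Of the 34 thresholded members 2 held GACGCA (acer-1 and F46G10.2), 3 held GAGAGA (F46G10.2, icl-1 and grsp-1) and 2 held CACGTG (mnk-1 and Y42A5A.1). Among the other thresholded summits GACGCA was present at 12.5%, GAGAGA at 25.8% and CACGTG at 8.21%. With 34 windows the intervals are wide, 1.63 to 19.1% for 2 of 34 and 3.05 to 23.0% for 3 of 34. A match is a run of letters and no measured site.

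The members were spread over 4243 host genes, 23.3% of the 18240 protein-coding genes with eligible coding sequence. Most hosts, 3341, had 1 member, 638 had 2 and 264 had 3 or more. The number per gene followed coding length: the rate was between 0.282 and 0.318 members per kb in each of 6 classes of gene length, from under 0.5 kb to over 8 kb. The share of genes hosting a member was 8.21% in the shortest class and 85.7% in the longest.

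The gene with most members was unc-22, which encodes twitchin, a giant muscle protein of the thick filament, with 18 members in 21.5 kb of eligible coding sequence (0.836 per kb, against 0.296 over all genes). Their joint signals ran from 28.8 to 52.04 with a median of 36.3, and 3 of the 18 lay in peaks of both replicates. Replicate 1 alone had 10 summits in this coding sequence and replicate 2 alone had 15. Next came vab-10, a spectraplakin gene of the epidermal attachment of muscle, with 12 members in 22.4 kb, 4 of them in both replicates' lists. The obscurin gene unc-89, of the muscle M-line, had 11 members in 23.8 kb, 2 of them in both lists. The megalin-like receptor gene lrp-1 had 10 members, 2 in both lists, and the ankyrin gene unc-44 had 9, 1 in both lists. The highest signal among the members of these 5 genes was 66.9, in unc-44. The median signals in these 5 genes were 34.1 to 37.5, against 37.1 over all members. Among other genes with many members, ret-1 and lrp-2 had 4 of 8 each in both lists, and differences between genes were not tested.

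Gene lists by symbol differed in members per kb of eligible coding sequence. Cuticle collagens, the structural proteins of the worm's outer layer, stood at 0.671 per kb in the joint list, 0.679 in replicate 1 and 0.598 in replicate 2, and 75 of 169 eligible genes (44.4%, 37.1 to 51.9%) hosted a member. Over all genes the rate was 0.296 per kb in the joint list, 0.346 in replicate 1 and 0.281 in replicate 2. The strongest collagen members were at col-103 (joint signal 87.4, own signals 53.98 in replicate 1 and 31.2 in replicate 2), col-111 (72.8, 32.6 and 42.1), col-91 (71.1, 27.3 and 39.2) and col-107 (68.9, 45.7 and 25.3). None of the 83 collagen members was in the thresholded list, which kept 0.605% of all members, so that 83 are too few to show a difference.

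Proteasome subunit genes had 0.732 members per kb in the joint list, 0.683 in replicate 1 and 0.537 in replicate 2, and 12 of 26 genes hosted a member. Examples are the ATPase subunit genes rpt-2 (joint signal 65.8) and rpt-5 (57.8), and rpn-11 (55.3), which removes ubiquitin from substrates. Translation factors had 0.580, 0.622 and 0.373 per kb in the joint, replicate 1 and replicate 2 lists, with 9 of 30 genes hosting a member and eif-2A (64.6) and eef-1A.2 (49.9) the strongest. Heat shock and chaperone genes had 0.458, 0.591 and 0.439 per kb, with 17 of 53 hosting one, led by dnj-11 (79.7), the chaperonin subunit gene cct-4 (73.9), dnj-18 (71.8) and the mitochondrial chaperone gene hsp-6 (71.4). Heterochronic genes, which set the timing of larval fates, had 0.571, 0.4995 and 0.464 per kb, with 9 of 16 hosting one, led by kin-20 (93.6, thresholded), sea-2 (58.3), lin-41 (57.8) and nhl-2 (50.5). In these 4 lists the rate was above that of all genes in each of the 3 peak lists. The 23.3% of all genes hosting a member lay inside the Wilson intervals of translation factors (16.7 to 47.9%) and chaperones (21.1 to 45.5%). It lay below those of proteasome (28.8 to 64.5%) and heterochronic genes (33.2 to 76.9%). The median eligible length was 1.53 kb in heterochronic genes, 0.919 kb in chaperones, 0.71 kb in proteasome genes and 0.68 kb in translation factors. Over all genes it was 0.787 kb, and its part in these shares was not tested. The host counts depend on the promoter windows: with windows of 2000 bp upstream and 500 bp downstream the hosts numbered 3 among proteasome genes, 4 among translation factors and 6 among chaperones, with 8 among heterochronic genes.

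Ribosomal protein genes are short: only 41 of 78 had any coding sequence outside promoter windows, a median of 0.219 kb. Of these, 6 (14.6%, 6.88 to 28.4%) hosted a member, and rps-13 with a joint signal of 67.6 was the strongest. Their rate was 0.553 per kb in the joint list, 0.461 in replicate 1 and 0.645 in replicate 2, from 10.8 kb in all. Muscle and attachment genes had 0.368, 0.426 and 0.296 per kb, with 23 of 39 (59.0%, 43.4 to 72.9%) hosting a member, among them the myosin heavy chain genes myo-2 (75.8) and myo-1 (72.5) and the paramyosin gene unc-15 (72.3). Vitellogenins, the yolk proteins, had 0.357, 0.429 and 0.286 per kb, with 4 of 6 hosting one and vit-6 (81.1) the strongest. Aminoacyl-tRNA synthetases had 0.343, 0.450 and 0.300 per kb, with 11 of 31 (35.5%, 21.1 to 53.1%) hosting one, or 3 with the windows of 2000 and 500 bp, and pars-1 (49.0) the strongest. The share over all genes was 23.3%, which the intervals of ribosomal protein genes and synthetases covered. The median eligible length was 3.75 kb in muscle and attachment genes and 4.63 kb in vitellogenins, against 0.787 kb over all genes.

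Several large gene families had lower rates. Chemoreceptors had 0.180 members per kb in the joint list, 0.225 in replicate 1 and 0.179 in replicate 2, and 163 of 1346 eligible genes (12.1%, 10.5 to 13.96%) hosted one, the strongest at srt-47 (84.7) and sri-32 (76.3). F-box genes had 0.151, 0.222 and 0.165 per kb, with 32 of 318 (10.1%, 7.22 to 13.9%) hosting one and fbxb-10 (65.7) the strongest. Cytochrome P450, UGT and GST genes of detoxification had 0.239, 0.228 and 0.271 per kb, with 41 of 179 (22.9%, 17.4 to 29.6%) hosting one and gst-1 (80.1) the strongest. Nuclear hormone receptors had 0.267, 0.283 and 0.235 per kb, with 59 of 267 (22.1%, 17.5 to 27.5%) hosting one and nhr-46 (73.4) the strongest. The hosting shares of the detoxification genes and of the receptors were near the 23.3% of all genes. In these 4 lists the rate was below that of all genes in each of the 3 peak lists.

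C-type lectins had 0.241 per kb in the joint list, 0.353 in replicate 1 and 0.257 in replicate 2. Of 234 genes, 38 (16.2%, 12.1 to 21.5%) hosted a member, 1 of them thresholded (clec-221), against 23.3% of all genes hosting one. Homeobox genes had 0.241, 0.362 and 0.141 per kb, with 11 of 62 (17.7%, 10.2 to 29.0%) hosting one and ceh-23 (56.2) the strongest, so the replicates fell on either side of all genes for both lists. Histones and major sperm proteins each had 1 member, in his-24 (50.6) and msp-33 (39.97), with 6 and 18 eligible genes. The GC content of eligible coding sequence moved with these rates in part: it was 55.9% in collagens, 53.5% in ribosomal protein genes and 46.8% in proteasome genes, against 37.9% in chemoreceptors, 38.3% in F-box genes and 42.8% over all genes. C-type lectins (44.3%) and homeobox genes (43.8%) went the other way, with GC content above that of all genes and a joint-list rate below it. The part of GC content in the differences between lists was not tested.

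**Figure D5:**
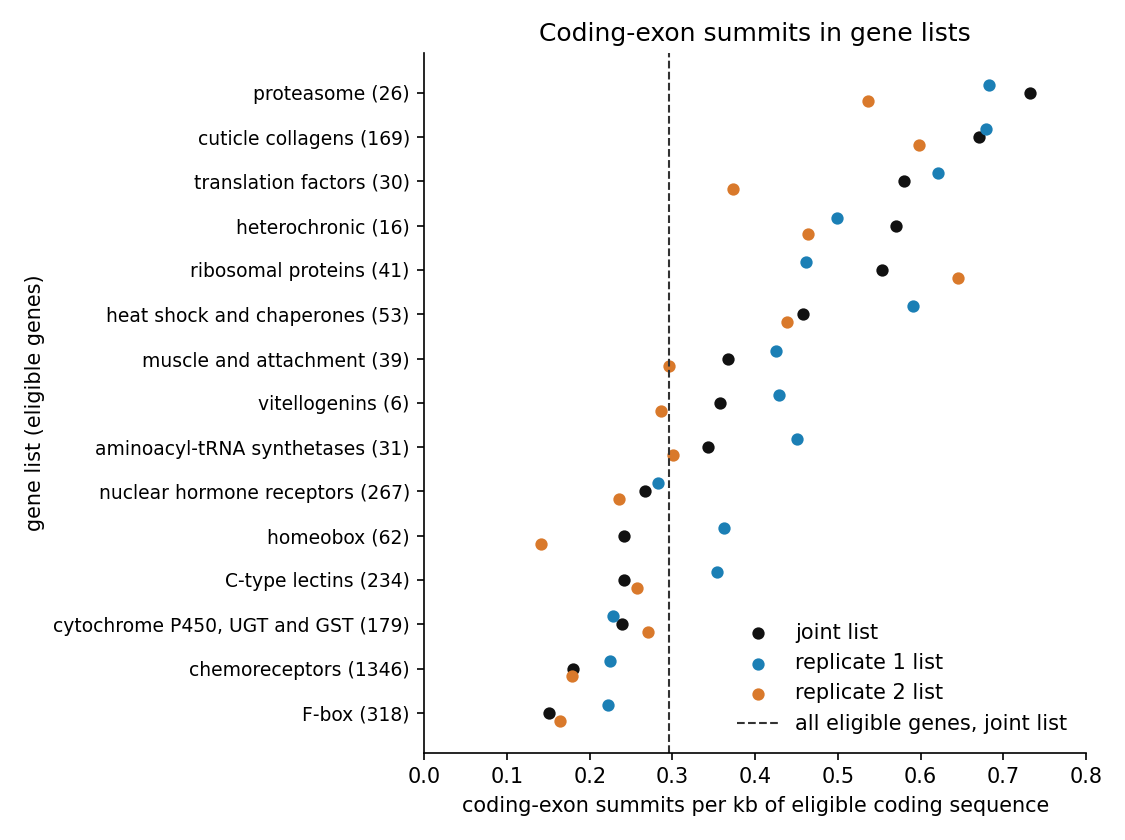
Coding-exon summits per kb of eligible coding sequence (horizontal axis) for the 15 gene lists with at least 5 members, in the joint list and in each replicate's own list, with the number of eligible genes in brackets; the dashed line is the joint-list rate over all eligible genes, 0.296 per kb. Proteasome genes and cuticle collagens are to the right of the line in all 3 lists, chemoreceptors and F-box genes to the left.

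By chromosome, X had 336 members per Mb of eligible coding sequence, against 288 per Mb on the autosomes together. Among autosomes the density ran from 271 per Mb on I to 298 per Mb on II. In replicate 1 alone X had 384 per Mb, against 339 on the autosomes, and in replicate 2 alone 317, against 275. X nevertheless held a smaller share of coding-exon summits among its own joint summits, 18.3%, than the autosomes, 22.2%. The thresholded members were 10 each on III and V, 5 on X, 4 each on I and II and 1 on IV. The shares of eligible coding length were 14.6% on III, 21.8% on V, 15.7% on X, 16.2% each on I and II and 15.6% on IV. These counts are small and were not tested. The middle 50% of the length of the autosomes had 302 members per Mb and their outer parts 269.

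The somi-1 gene, at chrV:13386058-13391395, held 2 members in coding segment 3 of 5, with joint signals of 48.5 and 45.1. The own signals were 21.6 in replicate 1 and 27.9 in replicate 2 at the stronger, and 21.4 in replicate 1 with no peak in replicate 2 at the weaker. Within 25000 bp to either side, 44 joint summits and 7 members were found in 9.47 kb of eligible coding sequence (739 per Mb, against 296 over the genome), the others in cpz-2, gcy-34, cutl-1, F53F1.4 and cut-2. Replicate 1 alone had 5 coding-exon summits there and replicate 2 alone had 7. The transgene carries extra copies of somi-1 sequence, and more template there cannot be told apart from binding.

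At the edge of the rule, the members nearest to a promoter window lay just past 200 bp downstream of a 5′ end, in acl-7 (joint signal 40.3), ikke-1 (39.6) and F28A10.5 (36.8). The coding summits just outside the rule lay at 200 bp, in nspd-2 (45.1), nhr-47 (41.6) and sra-31 (39.7).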

How the data were processed

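Peak lists of SOMI-1-eGFP ChIP-seq from 2 biological replicates of 1 group were used, with positions on ce11 per the labels. The authors' notes beside the files describe 1 list called for each replicate and 1 for both together, against 1 control alignment, from which they derived the thresholded list with an irreproducible discovery rate procedure. The signal value and the −log10 q-value of each peak were deposited by the authors, with no stated normalization. The control alignment was not analysed here. No aligner, peak caller, setting or read depth is given in the sources used here, and intervals cover counting of peaks only.

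Summits were placed on the Ensembl release 115 annotation of WBcel235 over 6 nuclear chromosomes with 19973 protein-coding genes, and sequence came from the RefSeq copy. A base was eligible if it was coding and outside every promoter window, and densities are per eligible length. Shares have Wilson 95% intervals. No test was run, since peaks of a list are no replicates and there is 1 group. The assignment of summits was tested on simulated data. Named are hosts of the 34 thresholded members, of the 5 next strongest, the 5 genes with most members, somi-1, up to 4 hosts per gene list and the summits at the rule's edge. Members, lists and words were chosen with earlier results of these data known. Alternatives were each replicate's list alone, other promoter windows, coding segments and overlaps, merging of members, the stronger part of the list and other window lengths. Python 3.11.15, pandas 2.3.3, numpy 2.4.6, scipy 1.17.1 and matplotlib 3.10.9 were used.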

Additional observations from a re-analysis of the deposited data

How the results depend on the processing

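Of 56 alternative values of the main counts and shares, 38 stayed within the tolerance, which is 1.5-fold for a count, the Wilson interval of the reported value for a share and the SD between the replicate lists (1.34) for the median percentile, and 18 moved. No direction of a called value turned, since no test was run. With a single replicate's list in place of the joint list, the number of coding-exon summits was 5349 to 6577, the median percentile 44.0 to 45.9, the host genes 4103 to 4807 and the last-segment share 15.1 to 16.5%. The stronger 50% of the joint list left 2351 members in 1989 host genes, a thresholded share of 1.45% and a median percentile of 69.0 of the whole joint list, and this follows from taking stronger peaks. The GACGCA share among them was 2.85% and the last-segment share 18.9%, and why these moved was not tested. Promoter windows of 2000 bp upstream and 500 bp downstream left 3866 members in 2878 host genes, within that tolerance. Members at least 50 bp inside their segment numbered 3559. With a replicate summit required within 100 bp, replicate 1 supported 58.6% of members, against 61.6% of the joint list, replicate 2 50.9% against 57.8%, and both 22.8% against 31.0%. With the stronger 50% of each replicate list the values were 42.1% against 48.3%, 33.3% against 43.9% and 12.3% against 23.1%. GACGCA was present in 1.39% of member windows of 25 bp to either side, against 2.28% at other joint summits, and in 4.57% of those of 100 bp to either side, against 8.41%. The thresholded share has no value in a single replicate's list. Gene list counts depend on the window: 15 ribosomal protein genes hosted a member with windows of 500 bp upstream and 100 bp downstream and 0 with windows of 2000 and 500 bp, against 6 as reported, and with the wide windows hosts numbered 37 among collagens, against 75, 83 among chemoreceptors, against 163, 20 among F-box genes, against 32, 17 among C-type lectins, against 38, and 17 among detoxification genes, against 41. No paired analysis was possible because there is 1 group.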

Other observations

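Genes with 5 or more members differed in how many both replicates supported. The genes given here were chosen after their values were seen, and the differences were not tested. In mtm-3, a myotubularin phosphatase gene, all 5 members lay in peaks of both replicates' lists, with joint signals of 31.7 to 75.2 in 3.09 kb of eligible coding sequence. In fasn-1, the fatty acid synthase gene, 6 of 7 members did, with joint signals of 29.98 to 61.4. In nrde-2, a gene of nuclear RNA interference, none of 6 did, with joint signals of 29.7 to 50.2 in 3.34 kb. In dig-1, which encodes a very large extracellular matrix protein, 1 of 8 did, and its 39.2 kb of eligible coding sequence held 0.204 members per kb. Over all members the share was 34.3%. By quintile of signal from the weakest, it was 7.85%, 15.1%, 33.8% and 60.6% in the first 4. The median signals of nrde-2 (31.5), dig-1 (33.5), mtm-3 (42.7) and fasn-1 (45.0) fell in these 4 quintiles in that order.

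Little eligible coding sequence lay near tRNA genes, and the number of members there was small. Within 500 bp of a tRNA gene 34 members were found, 0.605% of all, against 0.463% of eligible coding length, with a median joint signal of 48.5, against 37.1 over all members. Of these members near tRNA genes 2 (5.88%) were in the thresholded list, which kept 0.605% of all members.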
